A study of Mus musculus with 6 samples.

Results

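The Hoxb cluster was examined in dissected inner ear tissue of mouse embryos at embryonic day 11.5. Its members were the 9 genes Hoxb1 to Hoxb9, taken with every probe set that the Mouse Genome 430 2.0 array's annotation assigns to them, which gave 11 of the array's 45101 probe sets. For each 1-colour array, RNA was pooled over 3 embryos, both ears together, dissected to hold the otic vesicle (the epithelial sac that becomes the inner ear) and the periotic mesenchyme around it. Control pools, on 3 arrays, were T-Cre conditional Tbx1 heterozygotes. Mest-KO pools, also on 3 arrays, were T-Cre conditional Tbx1 knockouts. T-Cre acts in mesoderm, so Tbx1 remained in the otic epithelium of both groups, and both groups carried the Cre and had lost at least part of their mesodermal Tbx1. The comparison asks which genes of the dissected tissue differ once mesodermal Tbx1 is lost altogether.

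Hoxb genes encode homeodomain transcription factors that give cells their position along the head-to-tail axis. The genes are ordered on the chromosome broadly, though not at every step, as they are expressed along the body. Hoxb1, at one end, acts in the fourth segment of the hindbrain, and members toward Hoxb9 begin farther back. Retinoic acid, a signal made in the mesoderm beside the posterior hindbrain, turns on the genes of the Hoxb1 end early in development, and Hox proteins bind DNA together with Pbx and Meis partner proteins.

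The arrays resembled each other, with correlations of log2 level over the 14170 genes tested between 0.987 and 0.993. The Tbx1 intensity was between 447 and 567 on control arrays and between 409.9 and 578 on Mest-KO arrays. This does not check the labels, since otic epithelium keeps the gene and the place of the probe set relative to the deleted part is unknown. Markers of the labelled tissue were present: 10 genes of the otic epithelium and 8 of the periotic mesenchyme were measured above the filter on low values, and 0 of them passed the test between groups. As the background level served the highest intensity, 11.19, of 27 bacterial control probe sets on any array.

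Promoter sequence is shown for the member with the smallest p, Hoxb1, and for a member that differed the other way without passing, Hoxb4. Promoter windows (GRCm38.p6) were at hand for 3 of the 9 members, Hoxb1, Hoxb4 and Hoxb8. The windows are 238 bases long, on the plus strand, and end before the annotated start of the gene, at chr11:96365508-96365745 for Hoxb1 and chr11:96318017-96318254 for Hoxb4. Capitals mark matches to TGATNNAT, the letters that a Pbx protein and a Hox protein bind together.
Hoxb1: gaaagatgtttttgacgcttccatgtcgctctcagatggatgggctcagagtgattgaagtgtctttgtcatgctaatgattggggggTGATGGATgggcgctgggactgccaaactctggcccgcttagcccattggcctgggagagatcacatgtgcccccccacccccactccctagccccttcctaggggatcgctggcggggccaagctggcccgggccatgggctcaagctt
Hoxb4: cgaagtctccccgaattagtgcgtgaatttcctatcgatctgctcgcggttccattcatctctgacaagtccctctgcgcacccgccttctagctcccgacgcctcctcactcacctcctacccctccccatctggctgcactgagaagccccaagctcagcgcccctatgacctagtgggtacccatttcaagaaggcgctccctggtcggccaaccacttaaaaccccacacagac
The Hoxb1 window held 1 match, beginning 150 bases before its end, and the Hoxb4 window held 0. Searched on both strands, TGATNNAT occurred in 7.43% of the 32851 promoter windows of the same length. TGACAG, read by Meis proteins, occurred in 15.2% of windows, and GGTGTGA, a T-box site, in 3.18%, and neither was found in the Hoxb1 or Hoxb4 window. AGGTCA, the unit read by nuclear receptors such as those for retinoic acid, occurred in 13.5% of windows and once in the Hoxb4 window, 69 bases before its end on the minus strand. No motifs overlapped in these windows. A match describes the letters only.

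Of the 9 members, 5 were above the filter and were tested (Hoxb1 to Hoxb5). Hoxb1 was lower in Mest-KO, and Hoxb5 and Hoxb4 read higher without passing the test, while Hoxb2 and Hoxb3 showed small differences with wide intervals. Over all 14170 genes, 0.0635% passed in the lower direction (limma, adjusted p under 0.05), and 0.0847% in the higher direction. Together that is 0.148% of genes. Among the 5 members, 1 passed as lower (Hoxb1) and 0 as higher. Hoxb1 is above the filter through its control arrays alone, so this count is read against no background share, and without the filter its adjusted p was 0.149 and 0 members passed (limma). The median log2 difference of the 5 was 0.11, beside 0.01 for all genes tested. The groups did not overlap for 2 of the 5, 1 lower (Hoxb1) and 1 higher (Hoxb5), and for 14.5% of all genes, 5.22% lower and 9.32% higher. At an unadjusted p under 0.05 there were also 2 of the 5, and 8.97% of all genes. Both of these counts include Hoxb1, so they too are read against no background share. In dissected tissue, fewer cells of a type and less RNA per cell cannot be told apart.

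**Figure D1:**
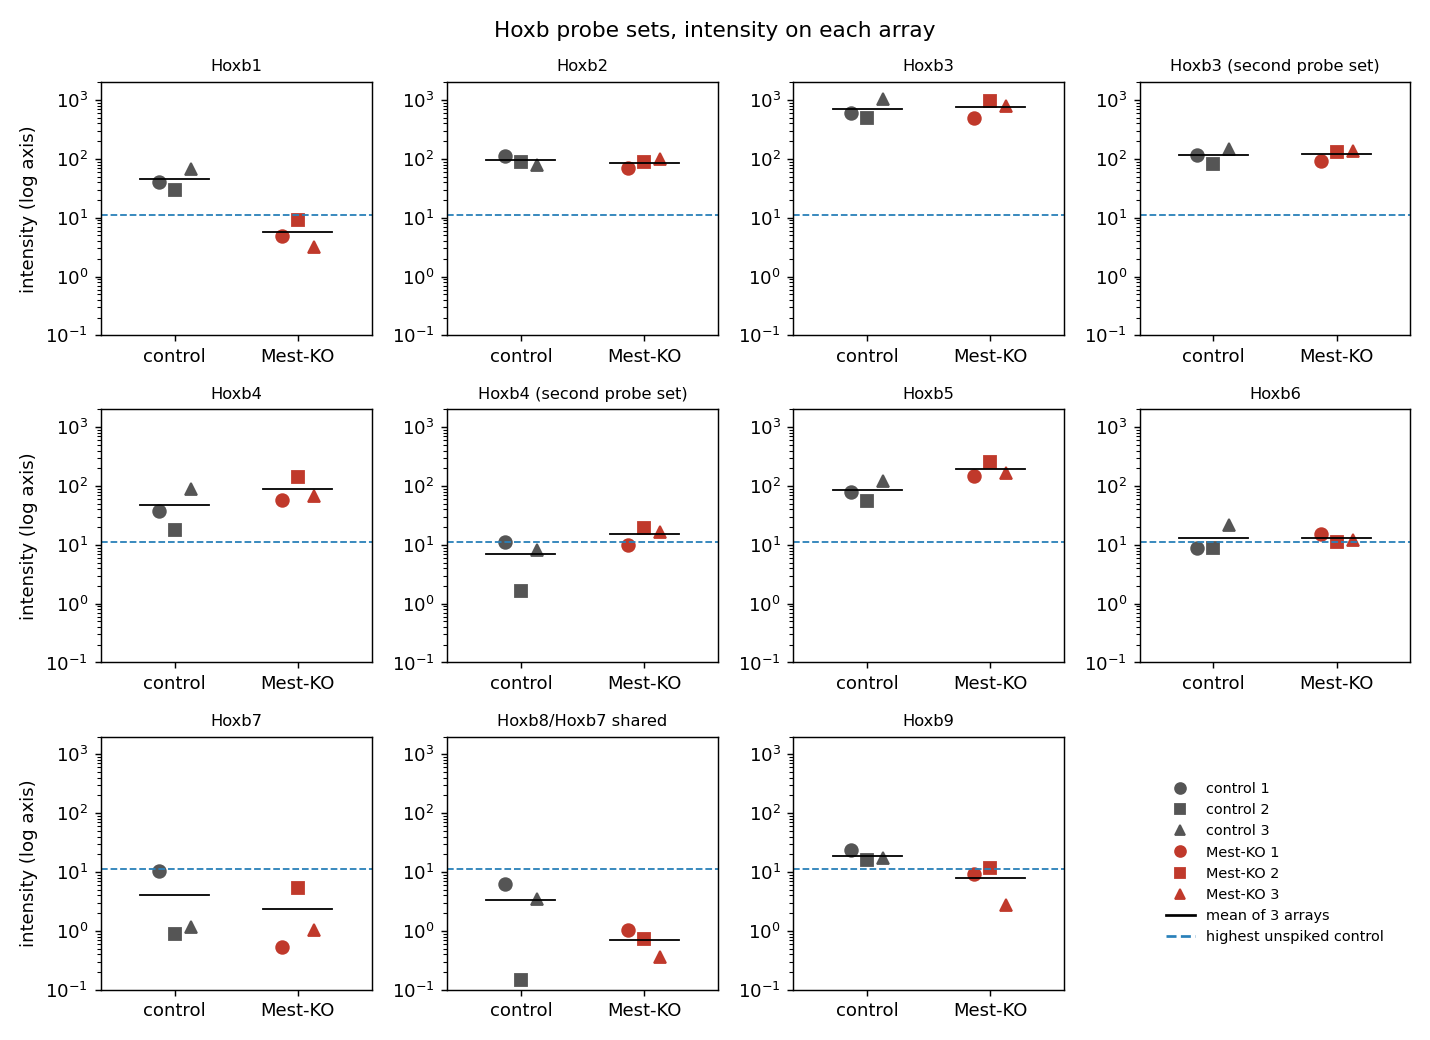
Intensity (log axis) of each of the 11 Hoxb probe sets on each array, with control in grey, Mest-KO in red, one symbol per replicate number, the mean of 3 arrays as a black bar and the highest unspiked bacterial control (11.19) as a dashed line. Hoxb1 lies above the line on all 3 control arrays and below it on all 3 Mest-KO arrays, and all Mest-KO arrays lie above all control arrays for Hoxb5.

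Hoxb1, which sets the identity of the fourth hindbrain segment and of the facial motor neurons born there, read 40.2, 29.1 and 66.0 in control 1, 2 and 3. In Mest-KO 1, 2 and 3 it read 4.96, 9.08 and 3.12. All 3 Mest-KO arrays were therefore below background, and the lowest control was above every Mest-KO value. The control mean was 45.1 ± 18.9 and the Mest-KO mean 5.72 ± 3.06 (SD, n = 3 arrays each). With the Mest-KO arrays set at background, control was at least 3.81-fold higher by geometric means. With 16 added to each intensity, as in the test, that bound was 2.18-fold. The log2 difference on the log2(intensity + 16) scale was -1.46 ± 0.23 (SE), and its 95% interval ran from -1.97 to -0.94 (limma, adjusted p = 0.0478 over all genes).

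The call for Hoxb1 stood at the edge of the threshold. The written design did not say whether the filter and the choice of probe set take means of log2 values or means of intensities. The adjusted p was 0.0478 with the first and 0.0503 with the second (limma; 0.0504 with array controls kept in the percentile), and the first was taken as the reported setting after these values had been seen. The call therefore rests on a choice made with its outcome known, and the array values above carry the comparison. Hoxb1 was lower in 20 of 20 other settings in which it was tested but passed in 6 of them, with adjusted p from 0.0042 to 0.853 (limma). These settings reuse the same arrays, whose groups do not overlap for Hoxb1, so the shared direction is no added support. Leaving out control 2, its lowest control, gave -1.65 ± 0.23 (limma, adjusted p = 0.0108). Leaving out any one of the other 5 arrays ended the call, with differences from -1.57 to -1.22 and adjusted p from 0.0831 to 0.268. With all 31526 probe sets above the filter tested in place of 1 per gene, its adjusted p was 0.0757 (limma), and 0 of the 6 Hoxb probe sets tested passed, beside 0.0666% of all probe sets. Of those 6, 2 had an unadjusted p under 0.05.

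Hoxb2, which lies next to Hoxb1 and is switched on by it in the hindbrain, differed less. It read 113, 89.6 and 80.0 in control 1, 2 and 3, against 68.8, 90.1 and 97.7 in Mest-KO 1, 2 and 3. The groups overlapped across most of their range, with means of 94.1 ± 16.7 and 85.5 ± 15.0 (SD, n = 3 arrays each). The log2 difference was -0.12 ± 0.17, and the 95% interval reached from -0.50 to 0.27 (limma, adjusted p = 0.890). A fall of the size seen for Hoxb1 lies outside that interval, although the difference between both genes was not tested. RefSeq places the noncoding gene Hoxb3os across part of Hoxb2.

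Hoxb3, which acts in the fifth hindbrain segment and behind it, read 592, 501 and 1023 in control 1, 2 and 3, against 503, 961 and 801 in Mest-KO 1, 2 and 3. The spread inside each group was wider than the gap between them, with means of 705 ± 279 and 755 ± 232 (SD, n = 3 arrays each). The log2 difference was 0.11 ± 0.26 (95% interval -0.47 to 0.70; limma, adjusted p = 0.934). A second probe set gave control values of 116, 83.4 and 145 and Mest-KO values of 93.3, 130.5 and 135, and its log2 difference was 0.06 ± 0.20 (limma over probe sets, adjusted p = 0.952). Both probe sets put control 3 highest and control 2 lowest among controls, and Mest-KO 1 lowest among Mest-KO arrays.

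Hoxb4, which begins at the border between the sixth and the seventh segment, read 37.7, 17.8 and 89.5 in control 1, 2 and 3, against 57.5, 141 and 67.2 in Mest-KO 1, 2 and 3. Control 3 lay above Mest-KO 1 and 3, so the groups overlapped. The means were 48.3 ± 37.0 and 88.5 ± 45.7 (SD, n = 3 arrays each), and the log2 difference was 0.78 ± 0.38 (95% interval -0.07 to 1.62; limma, adjusted p = 0.587). A dimmer second probe set, below the filter, gave control values of 11.3, 1.65 and 8.22 and Mest-KO values of 10.1, 19.0 and 16.4, with overlapping groups (exact permutation p = 0.2, two-sided). RefSeq places Hoxb4 inside the longer Hoxb3 gene, so transcripts of both genes could meet a probe set there. The size for Hoxb4 rested on single arrays: it was 0.39 ± 0.34 without control 2, 1.21 ± 0.33 without control 3 and 0.44 ± 0.38 without Mest-KO 2.

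Hoxb5, which marks tissue behind the hindbrain, vagal neural crest and foregut mesenchyme among it, read 78.4, 54.7 and 123 in control 1, 2 and 3. In Mest-KO 1, 2 and 3 it read 150.4, 257 and 167. Every Mest-KO array was above every control array, with the smallest gap between control 3 and Mest-KO 1. The means were 85.5 ± 34.9 and 191 ± 57.3 (SD, n = 3 arrays each), a ratio of 2.24. The log2 difference was 1.05 ± 0.25 (95% interval 0.49 to 1.61) and did not pass (limma, adjusted p = 0.195, rank 123 of the 14170 genes by p). It was positive in 21 of 21 other settings and passed in 0, with values from 0.77 to 1.84 and adjusted p from 0.0720 to 0.476 (limma). As for Hoxb1, the settings reuse the same arrays, so the shared direction is no added support.

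**Figure D2:**
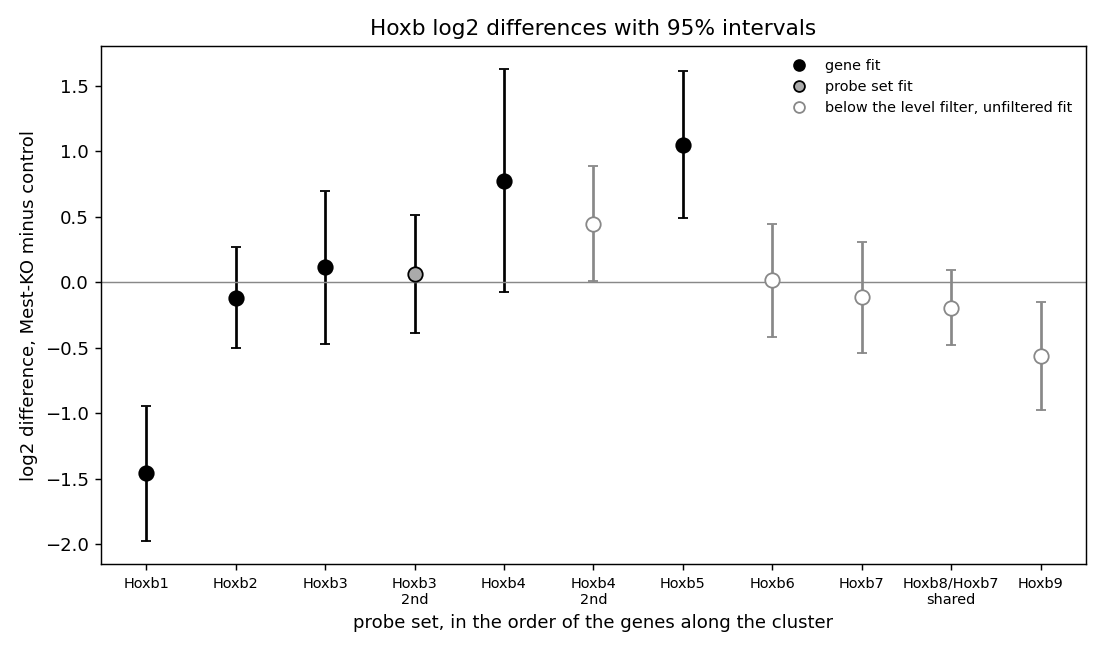
Log2 difference of Mest-KO minus control (points) with 95% intervals (bars) for the 11 Hoxb probe sets in the order of the genes along the cluster. Filled points come from the gene fit, the grey point from the fit over probe sets, and open points are probe sets below the level filter, taken from a fit without that filter. Values run from -1.46 for Hoxb1 through -0.12 for Hoxb2 and 0.11 for Hoxb3 to 1.05 for Hoxb5, and that of Hoxb9 is -0.56.

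The other 4 members, from the end of the cluster with the most posterior expression, were at or near background and were not tested with the rest. Hoxb6 read 8.81, 8.83 and 21.9 in control 1, 2 and 3, against 15.3, 11.18 and 12.3 in Mest-KO 1, 2 and 3, with overlapping groups (exact permutation p = 1, two-sided). Hoxb7 was at or below background on all 6 arrays, between 0.532 and 10.3. Hoxb8 has 1 probe set here, which matches Hoxb7 as well. That probe set was below background on all arrays too, between 0.143 and 6.27.

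Hoxb9, the last member and a gene of trunk level, was dim but separated the groups. It read 23.6, 16.005 and 17.2 in control 1, 2 and 3, against 9.29, 11.6 and 2.74 in Mest-KO 1, 2 and 3. All 3 control arrays were above background, and 1 of 3 Mest-KO arrays was. The means were 18.9 ± 4.09 and 7.86 ± 4.58 (SD, n = 3 arrays each), and the exact permutation p was 0.1, two-sided, the smallest that 3 against 3 can give. Without the filter its log2 difference was -0.56 ± 0.18 (limma over probe sets, adjusted p = 0.504). Among all probe sets but array controls, 13.6% separated the groups.

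The members also varied among arrays of one genotype, and they did so in 2 ways. Hoxb3, Hoxb4 and Hoxb5 were all highest in control 3 and lowest in control 2 among controls, and all highest in Mest-KO 2 and lowest in Mest-KO 1 among Mest-KO arrays. For Hoxb4, control 3 was 0.48 above and control 2 was -1.16 relative to the gene's mean log2 level over the 6 arrays, and Mest-KO 2 was 1.06 above it. Hoxb1 was also highest in control 3 and lowest in control 2, but lowest in Mest-KO 3. Hoxb2 had neither order. Of the 9 tested Hox genes of other clusters, 4 also had control 3 highest and control 2 lowest, and 2 of them, Hoxc4 and Hoxd8, also had Mest-KO 2 highest and Mest-KO 1 lowest. Both were named for this order after their values were seen, and the other 5 had another order among controls. How many of all genes tested have this order was not computed, so these counts are read against no background share. Control 2 also had the lowest median intensity of the 6 arrays, 59.95, against 66.05 to 70.64 on the others.

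**Figure D3:**
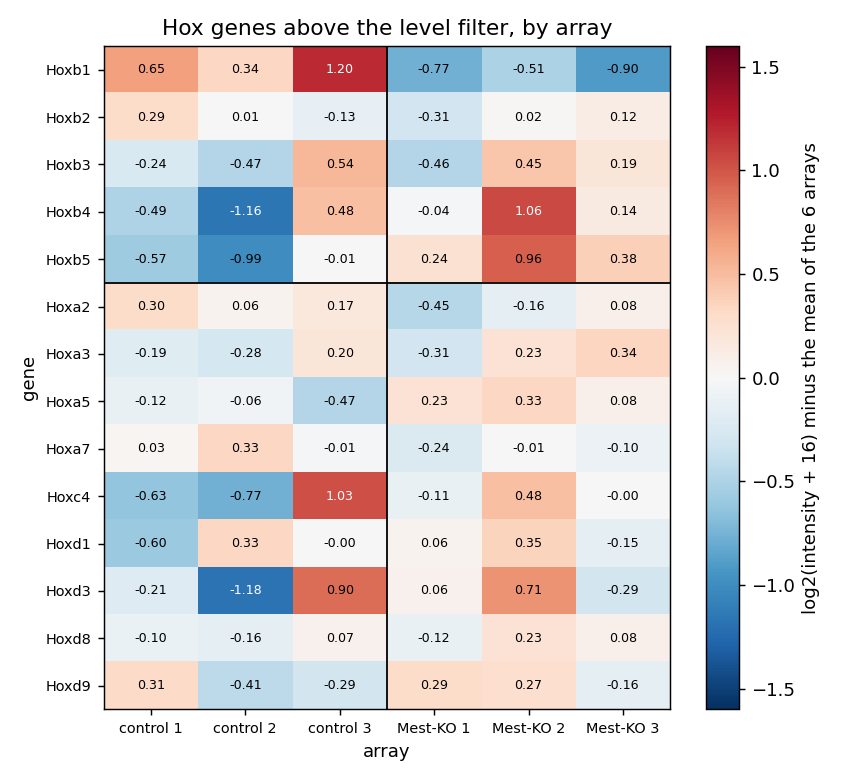
Log2(intensity + 16) of each Hox gene above the level filter minus its mean over the 6 arrays, by array, with red for higher and blue for lower; the horizontal line parts the 5 Hoxb genes from 9 genes of the other clusters and the vertical line parts control from Mest-KO. Hoxb4 runs from -1.16 in control 2 to 1.06 in Mest-KO 2, and Hoxb1 from -0.90 in Mest-KO 3 to 1.20 in control 3.

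Of 29 Hox genes in the Hoxa, Hoxc and Hoxd clusters, 9 were tested, 7 of them higher and 2 lower in Mest-KO, with a median log2 difference of 0.18, and 0 passed (limma, adjusted p under 0.05). At an unadjusted p under 0.05 there were 2 of the 9, beside 8.97% of all genes. Hoxa2, which patterns the second branchial arch, had a control mean of 1037 ± 89.3 and a Mest-KO mean of 817 ± 153 (SD, n = 3 arrays each; log2 difference -0.35 ± 0.13, limma adjusted p = 0.459). Hoxa5, a paralogue of Hoxb5, read 16.7 ± 4.78 and 27.8 ± 3.89 (SD, n = 3 arrays each; 0.43 ± 0.18, limma adjusted p = 0.525), with all Mest-KO arrays above all control arrays.

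The hindbrain neural tube borders the ear and itself expresses Hoxb genes, and a list of its markers moved with Hoxb1. Of 23 genes in that list, 21 had a probe set and 16 were tested, of which 15 were lower in Mest-KO. Of all 14170 genes tested, 6548 were lower and 7622 higher. In the list 1 gene passed (Skor1, -3.46 ± 0.49, limma adjusted p = 0.0256), and the median log2 difference was -1.20. The groups did not overlap for 6 of the 16, all lower, beside 5.22% of all genes. The 1 higher gene, Irx3 (0.13 ± 0.15, limma adjusted p = 0.848), was the brightest of those tested. The summed intensity of the 21 genes with a probe set ran from 1831 to 4443 over control arrays and from 1307 to 2209.6 over Mest-KO arrays. Irx3 alone read 963 to 1159 on control arrays and 914 to 1424 on Mest-KO arrays, a large part of these sums. Dbx2 and Olig2 were at or below background on all arrays. The mean log2 level of the 16 tested genes of the list, relative to the 6 arrays, had control values of 1.06, -0.23 and 1.08. Its Mest-KO values were -0.82, -0.17 and -0.92 (replicates 1, 2 and 3). Hoxb1 had the same order of arrays within the Mest-KO group and put control 2 lowest and control 3 highest, as the list did.

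With the mean of this list as a covariate, Hoxb1 differed by -0.87 ± 0.32 (limma, adjusted p = 0.853). Hoxb5 then differed by 1.84 ± 0.29 (limma, adjusted p = 0.137), Hoxb4 by 2.06 ± 0.40 (adjusted p = 0.254) and Hoxb3 by 0.80 ± 0.35 (adjusted p = 0.853). The size thus fell for Hoxb1 and grew for Hoxb3, Hoxb4 and Hoxb5. Hoxb2 differed by -0.04 ± 0.29 (limma, adjusted p = 0.996), and 0 of the 5 passed. Of the 16 genes in the covariate, 15 were themselves lower in Mest-KO, so this fit cannot separate the list from genotype. Whether hindbrain tissue in the dissection accounts for the Hoxb1 difference was not tested. Control 2 and Mest-KO 2 had nearly the same list level. Between these 2 arrays Hoxb1 read 29.1 and 9.08, Hoxb4 17.8 and 141, and Hoxb5 54.7 and 257, a single pair with no replicate check. For Hoxb4 and Hoxb5 these are the lowest and the highest values of all arrays, so this pair shows their widest gap. Tissue content was not tested with it.

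**Figure D4:**
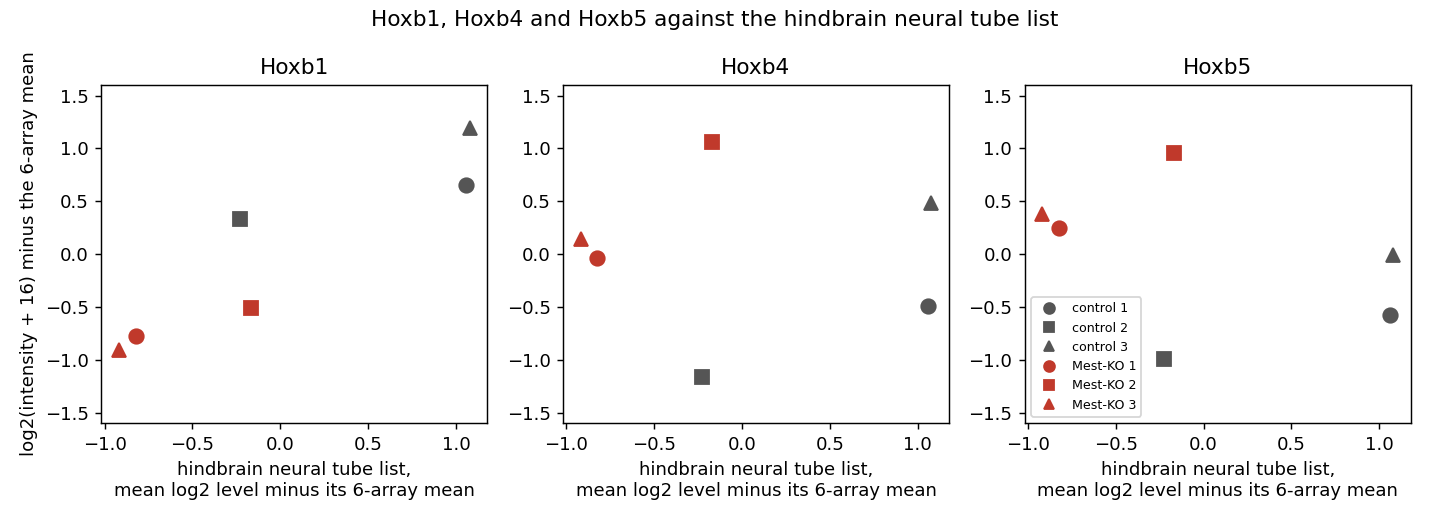
Hoxb1, Hoxb4 and Hoxb5 (log2 level minus the mean of the 6 arrays, y) against the mean log2 level of 16 hindbrain neural tube genes (minus its mean over the arrays, x), one point per array, control in grey and Mest-KO in red. Hoxb1 is highest where the list is highest, in control 3 (1.08), while at the middle list levels of control 2 (-0.23) and Mest-KO 2 (-0.17) Hoxb4 and Hoxb5 are at their lowest and highest.

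Other tissue marker lists had smaller medians. Of 8 periotic mesenchyme genes, 6 were lower (median -0.23), 2 of them with groups that did not overlap. Of 10 otic epithelium genes, 6 were lower (median -0.07), 1 of them with groups that did not overlap. Over all genes, 5.22% were lower without overlap. An unadjusted p under 0.05 (limma) was reached by 3 of the 8 and 2 of the 10, beside 8.97% of all genes. Neuron and ganglion genes were higher in 11 of 11 (median 0.27, 1 of them past the threshold, Pou4f1), and neural crest and glia genes in 4 of 4 (median 0.41, 0 past the threshold). Pharyngeal endoderm genes were lower in 5 of 5 (median -0.35, 1 past the threshold, Foxa1), but unevenly. The groups did not overlap for Foxa1 and Shh (-1.50 ± 0.27, limma adjusted p = 0.0806). They overlapped for Foxa2 (-0.35 ± 0.22, limma adjusted p = 0.685) and Pax9 (-0.15 ± 0.14, adjusted p = 0.809). Of 9 genes of paraxial mesoderm and muscle, 4 were higher and 5 lower (median -0.14). Meox1, a homeobox gene of paraxial mesoderm, passed as higher (1.15 ± 0.18, limma adjusted p = 0.0433). Pax1 (-1.47 ± 0.30, limma adjusted p = 0.1296) and Uncx (-1.73 ± 0.41, adjusted p = 0.189), both also in this list, differed the other way by more without passing. For both, all Mest-KO arrays were below all controls, and Uncx is above the filter through its control arrays alone. For Uncx, control 2 fell to 13.9, beside 88.0 for control 1 and 80.0 for control 3, and Mest-KO 2 was the highest of its group at 11.5. The hindbrain neural tube list had the same lowest control and the same highest Mest-KO array. Pax1 also had control 2 lowest among controls, but was highest in Mest-KO 3. Uncx read 1.80 in Mest-KO 1 and 0.578 in Mest-KO 3, below the background of 11.19, so its order within that group carries little weight. Which tissue the Uncx and Pax1 differences came from was not tested. All 5 endothelial genes tested were higher (median 0.27) and all 4 erythroid genes lower (median -0.18), with 0 past the threshold in either list. The part of these tissues in the Hoxb values was not tested.

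Genes that act on or with Hoxb genes did not pass the test. Of the 8 Hox cofactors tested, 0 passed, with a median log2 difference of -0.08. The cofactor gene Meis3 differed by 0.39 ± 0.12 (limma, adjusted p = 0.295), with all Mest-KO arrays higher, and Meis1 by -0.47 ± 0.19 (adjusted p = 0.482), where control 2 read 361 and control 1 and 3 read 636 and 614. Of 7 regulators of Hox genes in the hindbrain and along the axis, 0 passed. Egr2, the factor of the third and the fifth segment that switches on Hoxb2, read 384 in control and 575 in Mest-KO (0.54 ± 0.18, limma adjusted p = 0.357). Fgf3, a signal from the hindbrain to the ear, differed by 0.46 ± 0.18 (limma, adjusted p = 0.470).

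Of the 19 genes of the retinoic acid pathway tested, 12 were higher and 7 lower, with a median log2 difference of 0.09, and 0 passed (limma, adjusted p under 0.05). At an unadjusted p under 0.05 there were 6 of the 19, beside 8.97% of all genes. The enzyme genes Aldh1a3 (0.43 ± 0.12) and Aldh1a2 (0.45 ± 0.14), whose products make retinoic acid, read higher in all 3 Mest-KO arrays than in any control. Cyp26b1, whose product breaks it down, differed by -0.65 ± 0.20, with all 3 Mest-KO arrays below all controls. Cyp26a1, which encodes another enzyme of that breakdown and was named after its values were seen, differed the opposite way by 0.28 ± 0.12 (limma, adjusted p = 0.532), with all 3 Mest-KO arrays above all controls. Stra6, encoding a receptor that takes up retinol, differed by 0.37 ± 0.14. The adjusted p values of Aldh1a3, Aldh1a2, Cyp26b1 and Stra6 lay between 0.263 and 0.441.

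Transcripts beside the cluster had differences near 0. Of 9 tested in and beside it, 4 were higher and 5 lower, their groups all overlapped and their median log2 difference was -0.01, with 0 past the threshold and 0 with an unadjusted p under 0.05. Cbx1, encoding a heterochromatin protein on the side of Hoxb1, differed by -0.13 ± 0.07 (limma, adjusted p = 0.635), and Igf2bp1, an RNA-binding protein gene on the side of Hoxb9, by -0.07 ± 0.09 (adjusted p = 0.870). Hoxb13, the outlying last gene of the cluster, and Hoxb5os, a noncoding gene that RefSeq places across Hoxb5 and Hoxb6, were at or below background on all 6 arrays.

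The genes whose log2 levels tracked a member most closely over the 6 arrays were found among the 14169 others. For Hoxb1 they were Ogfod3 (Pearson r = 0.997, Spearman rho = 1), Pkn2, a protein kinase gene (0.992 and 1), and Atpaf1, an assembly factor of the mitochondrial ATP synthase (0.986 and 0.943). For Hoxb5 they were Filip1l (Pearson r = 0.996, Spearman rho = 1), the tight junction gene Cldn1 (0.982 and 1) and Ccm2l (0.981 and 1). These are descriptions over 6 arrays of 2 genotypes, which share the genotype difference, and 1.21% of genes reached r over 0.9 with Hoxb1 and 0.55% with Hoxb5. Their own differences were smaller than those of the members, from -0.29 to -0.19 on the log2 scale for the first 3 and from 0.14 to 0.64 for the others, and none passed (limma, lowest adjusted p = 0.165).

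**Figure D5:**
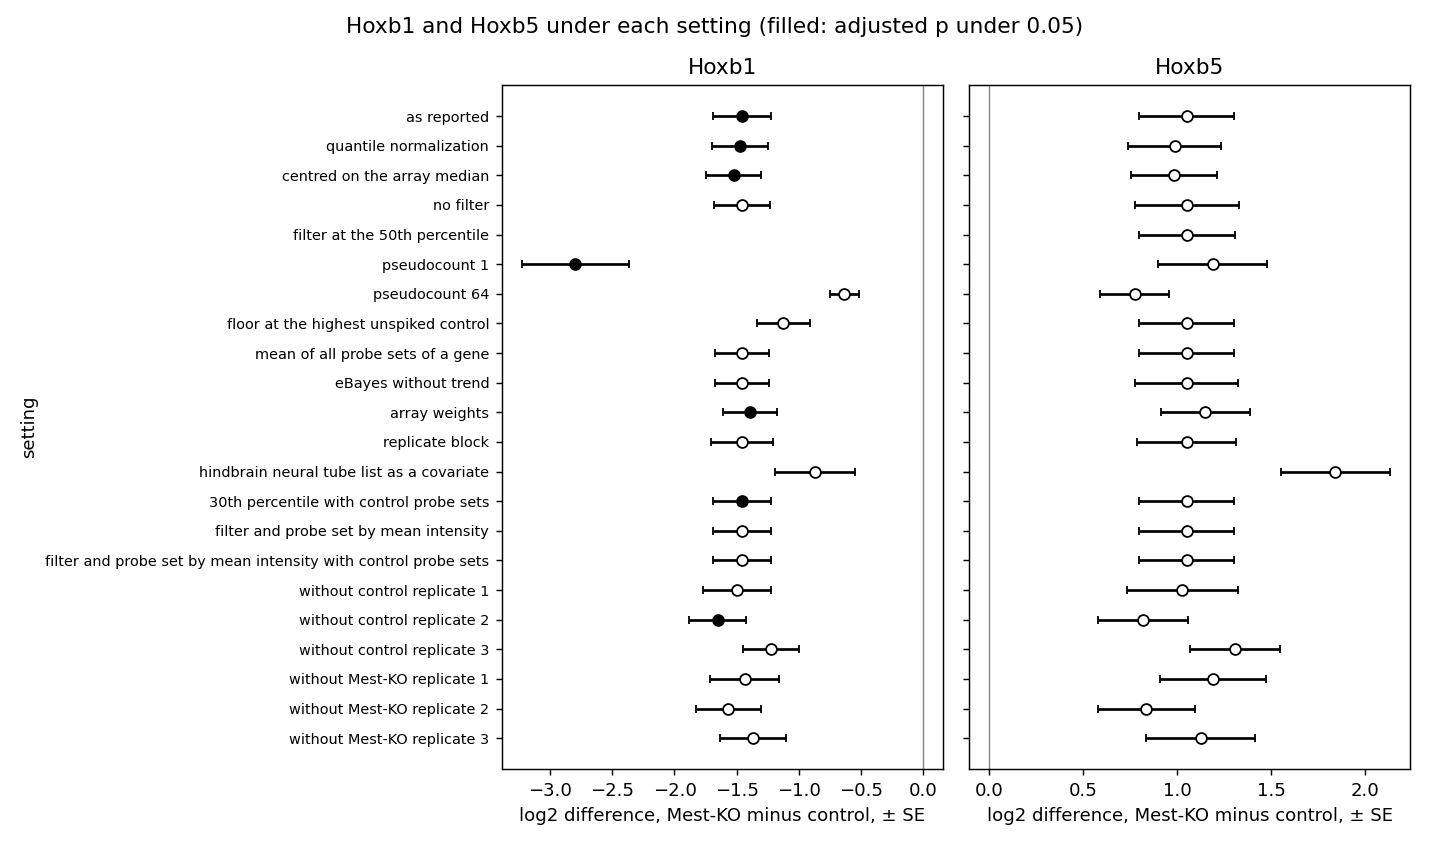
Log2 difference of Mest-KO minus control with its standard error for Hoxb1 (left) and Hoxb5 (right) as reported and under each other setting, with filled points where the adjusted p was under 0.05. Hoxb1 stays below 0, between -2.80 and -0.63, and is filled in 6 of its 20 other settings, and Hoxb5 stays above 0, between 0.77 and 1.84, and is filled in 0 of 21.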

How the data were processed

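The authors deposited linear intensities. Per the submitters' processing notes, Expression Console 1.1 was used, and how probes were summarized or corrected for background is not given in the sources used here. Each array's mean intensity, trimmed by 2%, was 500.002, so a shift common to most genes is not visible. The 64 array control probe sets were left out. Gene names came from the platform annotation (34945 probe sets with 1 symbol, 932 with several, 9160 unlisted). Intensities were taken as log2(value + 16). The probe set of highest mean stood for a gene, and genes above the 30th percentile of probe set means (an intensity of about 13.3) were tested, 14170 of 18193. Mest-KO was compared with control by limma 3.58.1 (R 4.3.3), genotype only, eBayes with trend, two-sided, Benjamini-Hochberg adjustment over all genes at 0.05. The written design did not say whether these means are of log2 values or of intensities. Intensities were run first, with and without array controls in the percentile. Means of log2 values were made the reported setting after Hoxb1's adjusted p was known under the others, because they give the same 14170 genes and 21 calls as an earlier analysis of these data. Precision is limited by the number of arrays, which the labels name biological replicates.

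All 9 members were named. Of the other lists, members past the threshold and up to 4 with the smallest p were eligible, and the 3 genes most like Hoxb1 and like the other member with the smallest p. Cyp26a1, Hoxc4, Hoxd8 and Irx3 were named outside this rule, after their values were seen. Members and lists were chosen with earlier results of these data known. The reported fit did not pair arrays by replicate number, since the labels do not say that the numbers pair them. The alternatives were other normalizations, filters, pseudocounts (1 and 64), a background floor, the mean of all probe sets, eBayes without trend, array weights, a replicate block, the hindbrain list as a covariate and each array left out. The filter with array controls included and both filters on mean intensities were added after seeing the data. The fit was tested on simulated data.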

Additional observations from a re-analysis of the deposited data

How the results depend on the processing

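With 3 arrays a group, 1 of 5 Hoxb genes passed (Hoxb1), also with quantile normalization, median centring, pseudocount 1, array weights and the 30th percentile taken with array controls. The count was 0 with no filter, with the filter at the 50th percentile (which left 3 members tested), with pseudocount 64, with the floor, with the mean of all probe sets, with eBayes without trend, with the hindbrain list as a covariate and with the filter on mean intensities (with or without array controls), and 0 to 1 with an array left out. With the replicate block the count was also 0, with Hoxb1 at an adjusted p of 0.0940 and 9 genes past the threshold in all. Correlations of deviations were -0.03, -0.11 and -0.15 for same-numbered arrays and from -0.15 to 0.24 for differently numbered ones. The labels do not say whether the numbers pair the arrays, and these correlations over 3 arrays a group cannot decide it. Over probe sets, 0 of 6 passed, 1 with median centring, and 0 to 1 with an array left out (1 without control 2). The cause of these changes was not tested, except that Hoxb1 did not reach the 50th percentile.

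The count over all genes, 21, ranged from 2 to 82 with an array left out and was 78 with median centring (22 higher, 56 lower), 6 with the mean of all probe sets, 3 with the covariate, 2 with no filter and 1 without trend. Hoxb2 ranged from -0.21 to 0.0083 with an array left out and was positive without control 1 (0.00071) or Mest-KO 1 (0.0083). Hoxb3 ranged from -0.092 to 0.41 and was negative without control 2 (-0.092) or Mest-KO 2 (-0.080). Hoxb4 and Hoxb5 kept their direction and did not pass in any setting run.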
